A study of Danio rerio with 20 samples.

Results

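The genes described here are 10 activity-induced genes of the Egr, Ier2, Nr4a and Npas4 families, read in sorted zebrafish oligodendrocyte precursor cells (OPCs, progenitors of the glia that myelinate axons). They were taken by symbol from the deposited gene tables, where all 10 were found among 31743 genes. The members are egr1, egr2a, egr2b, egr3, egr4, ier2a, ier2b, nr4a1, nr4a3 and npas4a. RNA was measured by 3' sequencing in 20 libraries, 5 in each of 4 groups. One group received 4-aminopyridine (4AP, a blocker of voltage-gated potassium channels that raises neuronal activity) and another was its 4AP control. A treatment time of 16 h is given for all 20 libraries, those of demyelination and both controls included. In the third group demyelination was induced with capsaicin acting on the TRPV1 channel, and the fourth was the demyelination control. The labels name no strain, age, sorting reporter, TRPV1-expressing cell type or control treatment, and do not say whether libraries came from separate animals, so p-values measure the spread between these libraries, which may be technical.

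These genes are immediate early genes: their transcription starts within minutes of a stimulus, without new protein synthesis, and their transcripts usually decay within hours. The Egr genes encode zinc-finger transcription factors, and egr2b (krox20) is known for hindbrain patterning and, in Schwann cells, for myelination. The Ier2 genes encode small nuclear proteins, the Nr4a genes encode orphan nuclear receptors that act without a known natural ligand, and npas4a encodes a basic helix-loop-helix factor that in mammalian neurons follows calcium entry. Neuronal firing, growth factors and tissue dissociation are all known to induce genes of this class.

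Depth set which members could be compared. The 4AP controls held 163158 to 897620 gene reads (exon and intron reads together) and the 4AP libraries 356494 to 1744483. The demyelination controls held 1180 to 282966 and the demyelination libraries 38314 to 3528970. File names carry a prefix whose meaning is not stated: 4AP controls 1 to 4 have P1, 4AP control 5 and all 5 4AP libraries have P2, and the demyelination experiment has P3. Demyelination control 1, with 1180 reads in all, held 0 reads of every member, and 3 reads there would already be 2542 CPM (reads scaled to equal totals of gene reads). It shows nothing about these genes. Group levels of the well-read members and the ier2a change in demyelination are also given without it. The other fits of demyelination, and those of the difference between the responses, include it unless stated. Reads of all 6 OPC markers (olig1, olig2, sox10, pdgfra, cspg4, nkx2.2a) were present in each group, with summed levels of 213 to 374 CPM (4AP controls), 444 to 659 (4AP), 355 to 468 (demyelination controls 2 to 5) and 124 to 456 (demyelination). Markers of other cells were read too. In the 4AP controls sums were higher for 5 epidermal (3850 to 9540 CPM), 5 muscle (1480 to 2568) and 7 radial glia markers (1082 to 1865). They were lower for 4 mural (57.5 to 149 CPM) and 7 endothelial markers (10.1 to 42.3). Presence of the OPC markers is thus no measure of how pure the sorted cells were. In such bulk samples fewer cells of a type and less RNA per cell cannot be told apart.

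The members differed widely in how often they were read. Over the 20 libraries ier2a had 3010 reads, egr1 622, egr4 353, nr4a3 307, ier2b 197, nr4a1 154, egr3 68, egr2a 60, egr2b 32 and npas4a 20. Many of these reads came from the deepest library, demyelination library 5 (362 of egr1 and 209 of nr4a3), so the totals do not order the precision of any 1 comparison. The totals were not scaled by length and are not read here as a ranking of expression. After the filter on low counts, 3 members could be tested for 4AP (ier2a, egr4 and egr1), 1 for demyelination (ier2a) and 3 for the difference between the responses (ier2a, egr4 and egr1). Members that did not pass the filter were tested in a fit without it.

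Positions are those of the deposited tables, and the submitters' processing notes name the build GRCz11. The single exon of ier2a (ENSDARG00000099195) lies on chromosome 3 at 33761549-33762726, and that of ier2b (ENSDARG00000086881) on chromosome 11 at 31038409-31039533. The gene egr4 (ENSDARG00000077799) has 2 exons on chromosome 23 at 45579497-45581626, and egr1 (ENSDARG00000037421) has 2 on chromosome 14 at 21332522-21336385. The Nr4a genes are long and divided into many exons, nr4a1 (ENSDARG00000000796) with 16 on chromosome 23 at 32149269-32194397 and nr4a3 (ENSDARG00000055854) with 11 on chromosome 16 at 27345383-27369782. All 10 are annotated as protein-coding.

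**Figure D1:**
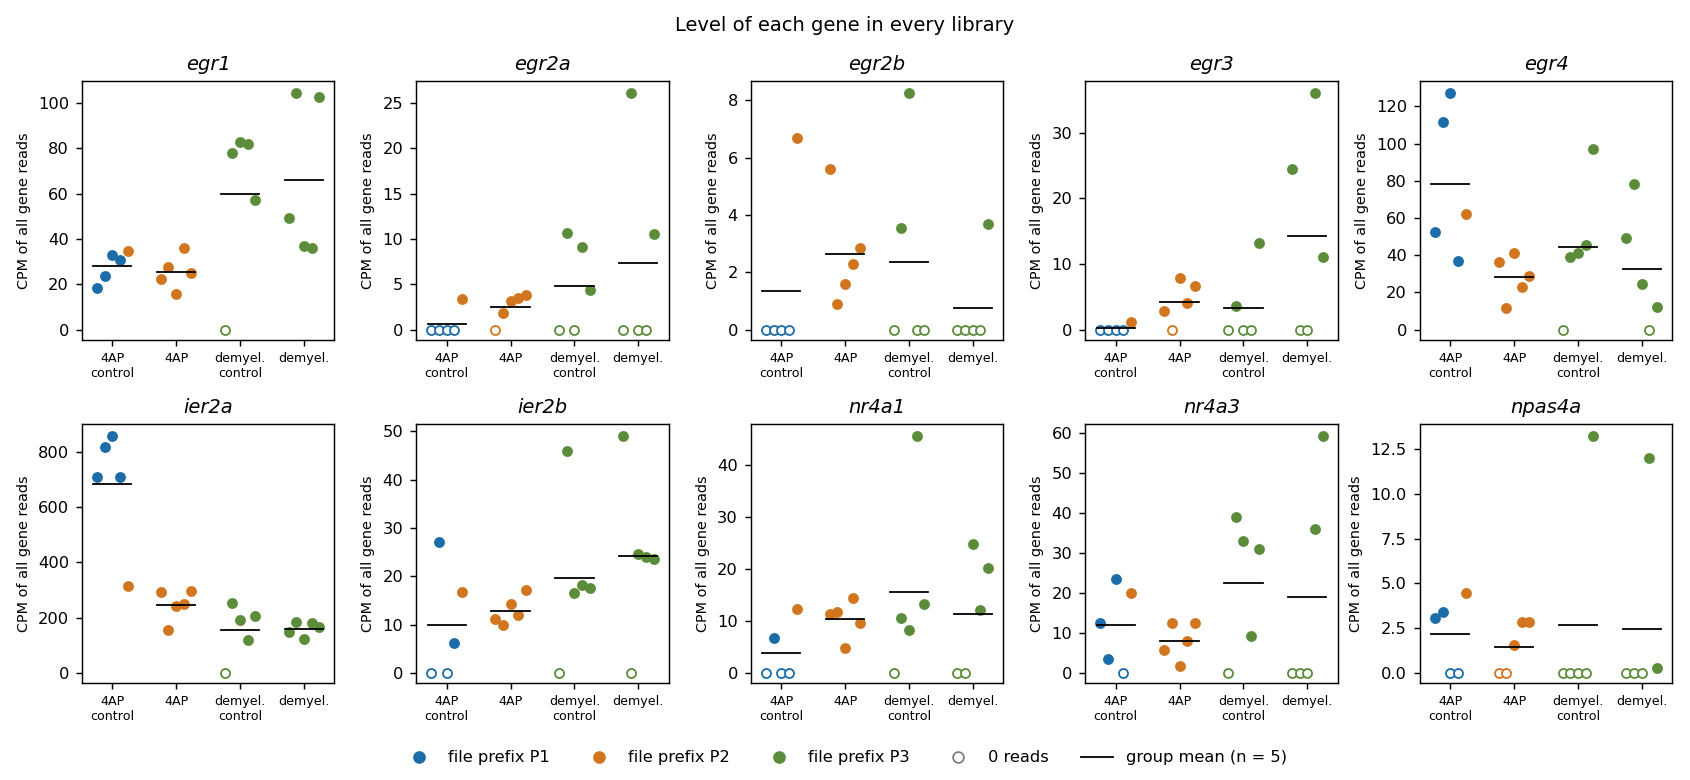
Level of each gene in every library, in CPM of all gene reads, by group and coloured by file prefix. Open points are libraries with 0 reads and lines are group means (n = 5). For ier2a the 4 P1 controls lie at 711 to 858, apart from every other library, and 4AP control 5 lies at 315.

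The Ier2 gene ier2a fell in 4AP. Its levels were 711, 819, 858, 711 and 315 CPM in 4AP controls 1 to 5, and 295, 155, 242, 250 and 296 CPM in 4AP libraries 1 to 5. Every 4AP library lay below every control, but control 5 (315) stood close to 4AP library 5 (296), while the other 4 controls were all at 711 or more. In normalised values (CPM scaled by the trimmed mean of M-values, TMM) the controls were at 844 to 1097 and control 5 at 357, beside 156 to 312 in 4AP. The log2 fold change was -1.79 ± 0.31 (SE, edgeR quasi-likelihood test, Benjamini-Hochberg adjusted p = 0.00331 over 5161 genes, lower in 5 of 5 libraries).

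The zinc-finger gene egr4 (Egr family) fell by a like amount. Its levels were 52.5, 112, 127, 36.8 and 62.4 CPM in the controls and 36.5, 11.6, 41.1, 22.9 and 28.6 CPM in 4AP. Control 4 lay below 4AP library 3 on this scale, so the groups overlapped, while after TMM the lowest control (43.6) lay above the highest 4AP library (38.8). The log2 fold change was -1.83 ± 0.42 (SE, edgeR adjusted p = 0.0117). In the deposited tables egr4 overlaps cyp17a2 on the opposite strand, a gene with 62 reads in all libraries together, and the strand of counting is not stated.

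The zinc-finger gene egr1 did not pass the test. Its levels were 18.5, 23.7, 33.0, 30.6 and 34.5 CPM in the controls and 22.4, 27.7, 15.8, 36.1 and 24.8 CPM in 4AP. Both groups covered much the same range. The log2 fold change was -0.42 ± 0.39 (SE, edgeR adjusted p = 0.455), and with scaling by library totals it was -0.06 ± 0.39. Of the 3 members tested, 2 were thus called, both lower, where 10.1% of all genes tested were called lower (520 of 5161) and 2.98% higher. After TMM the groups did not overlap at ier2a and egr4, nor at 9.53% of all genes tested (3.58% with 4AP lower). The median log2 fold change of all genes was 0.19 with TMM and 0.55 with library totals, and with the latter ier2a and egr4 were still called, at -1.39 and -1.44 (edgeR adjusted p = 0.0204 and 0.0401).

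The calls of ier2a and egr4 held in all 10 fits that left out 1 library, with log2 fold changes of -1.93 to -1.57 for ier2a and -2.01 to -1.53 for egr4. They did not hold once the file prefix entered the model, where the comparison rests on control 5 as the single P2 control. There ier2a was at -0.54 ± 0.36 and egr4 at -1.40 ± 0.57 (SE, edgeR adjusted p = 0.999 for each), and 0 genes of 5161 passed, with 106 at an unadjusted p under 0.05. With the library total as a term they were at -1.23 ± 0.40 and -1.41 ± 0.51 (SE, edgeR adjusted p = 0.453 for each). Since P1 held controls alone, prefix and treatment cannot be told apart beyond that single library.

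**Figure D2:**
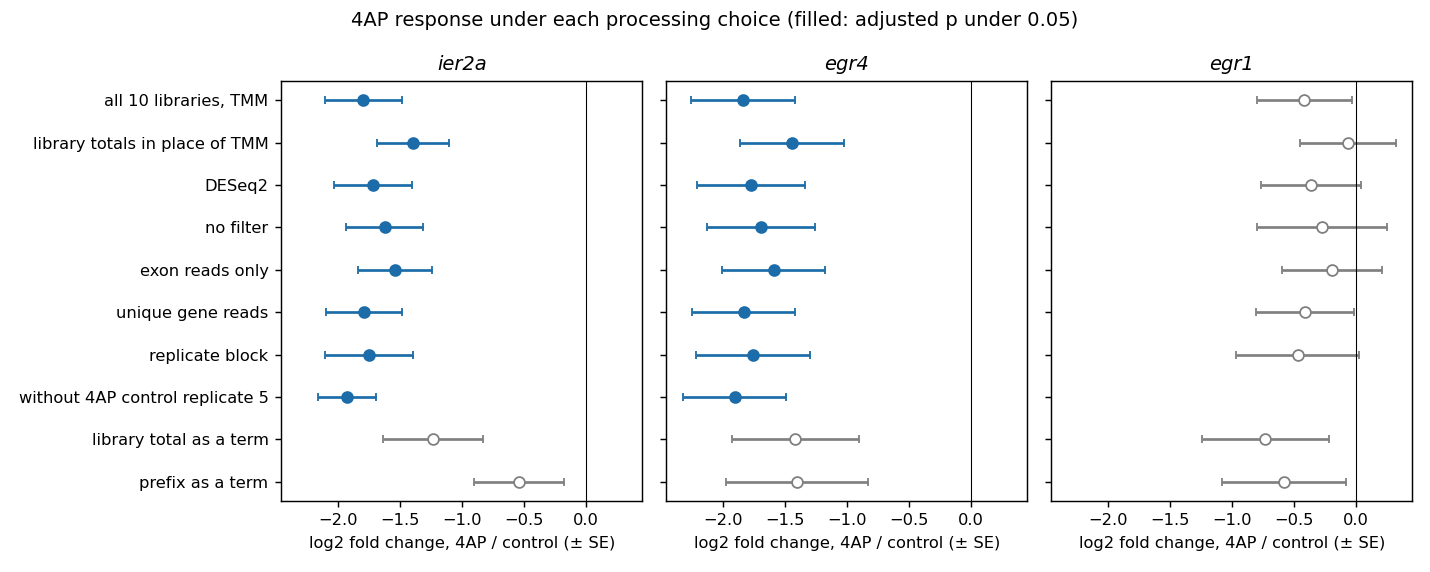
Log2 fold change (4AP over control, ± SE) of ier2a, egr4 and egr1 under each processing choice, filled where the edgeR or DESeq2 adjusted p was under 0.05. The ier2a value moves from -1.79 to -0.54 with the prefix as a term, and that of egr4 from -1.83 to -1.40. The panel for egr1 has no point without 4AP control 5, where the gene did not pass the filter.

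The paralog ier2b did not pass the test. It had 0, 8, 0, 1 and 15 reads in the 4AP controls (0 to 27.1 CPM) and 4, 11, 9, 21 and 18 in 4AP (9.85 to 17.2 CPM). Without the filter its log2 fold change was 0.01 ± 0.75 (SE, edgeR adjusted p = 0.995). The share of ier2a among the reads of both paralogs needs no scaling between libraries. That share was 98.8% in the 4 P1 controls (770 of 779 reads, 95% Wilson interval 97.8 to 99.4), 94.97% in control 5 (91.9 to 96.9), 94.9% in 4AP (93.6 to 96.0), 88.1% for the demyelination controls (82.4 to 92.1) and 87.5% for demyelination (84.9 to 89.7). Control 5 thus lay within the 94.02 to 96.3% spanned by single 4AP libraries, and below the P1 controls at 96.8 to 100%. These intervals cover counting error only.

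The remaining Egr genes were near the limit of detection in the 4AP experiment. The reads of egr2a were 0 in controls 1 to 4, 3 in control 5, and 0, 2, 2, 6 and 4 in 4AP. Those of egr2b were likewise 0 in controls 1 to 4, 6 in control 5, and 2, 1, 1, 4 and 3 in 4AP. Those of egr3, a further zinc-finger factor induced by activity, were 0 in controls 1 to 4, 1 in control 5, and 1, 0, 5, 7 and 7 in 4AP. The 4 controls with 0 reads of all of them were the shallower ones, and together they allow up to 3.02 CPM (3 reads over the 4 libraries). The pooled 4AP levels were 2.86 CPM for egr2a and 2.24 for egr2b, under that limit, so a difference from those controls was not detectable at this depth. For egr3 the pooled 4AP level was 4.08 CPM (exact Poisson 95% interval 2.49 to 6.30, counting error only). Without the filter its log2 fold change was 2.52 ± 1.15 (SE, edgeR unadjusted p = 0.0277, adjusted p = 0.195), which did not pass.

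The nuclear receptor genes and npas4a did not pass either. The reads of nr4a1 were 0, 2, 0, 0 and 11 in the controls and 4, 13, 3, 25 and 10 in 4AP, that is 0 to 12.3 CPM and 4.74 to 14.3 CPM. Control 5, at 12.3 CPM, lay inside the 4AP range. The reads of nr4a3 were 4, 1, 5, 0 and 18 in the controls and 2, 14, 1, 14 and 13 in 4AP, that is 0 to 23.6 and 1.58 to 12.5 CPM. The neuronal activity factor npas4a had 15 reads in the whole 4AP experiment, with at most 5 in any library. Log2 fold changes without the filter were 0.72 ± 0.73 for nr4a1, -0.76 ± 0.67 for nr4a3 and -0.87 ± 0.88 for npas4a (SE, edgeR adjusted p = 0.573, 0.520 and 0.569). Among all 10 members that fit called ier2a and egr4 alone, both lower.

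Demyelination was compared with its control as the other condition named in the series title, regenerative myelination. The level of ier2a was 0, 254, 190, 118 and 207 CPM in demyelination controls 1 to 5 and 147, 183, 123, 180 and 166 CPM in demyelination. The 5 demyelination libraries lay inside the range of controls 2 to 5. With control 1 included, groups that did not overlap made up 2.07% of genes tested (0.122% with demyelination lower). A gene with 0 reads in control 1 could not be counted there as lower, and no share was computed without control 1. The log2 fold change was 0.05 ± 0.33 (SE, edgeR adjusted p = 0.970) and 0.06 ± 0.30 without control 1 (SE, edgeR adjusted p = 0.931). Of 823 genes tested 0 were called (0%), with 78 at an unadjusted p under 0.05, and DESeq2 called 5. Scaling by library totals turned the sign of ier2a, to -0.24 ± 0.33.

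The other members rested on few reads there. The levels of egr1 were 77.7, 82.6, 81.9 and 57.3 CPM in demyelination controls 2 to 5, and 49.0, 104, 37.0, 36.1 and 103 CPM in demyelination. The demyelination libraries thus lay on both sides of the controls. Of the 374 egr1 reads in demyelination 362 came from demyelination library 5, which held 3528970 of the 3772297 gene reads of the group. Those of egr4 were 38.9, 41.3, 45.5 and 97.0 CPM in controls 2 to 5 and 49.0, 78.3, 24.7, 0 and 11.9 CPM in demyelination, where the library at 0 could have held up to 36.1 CPM. Library 5, the deepest, was at 11.9 CPM from 42 reads, below all 4 of those controls. Without the filter the log2 fold change of egr4 was -1.63 ± 0.68 (SE, edgeR unadjusted p = 0.0166, adjusted p = 0.610), which did not pass. That of npas4a was -2.30 ± 0.99 from 5 reads in 10 libraries (SE, edgeR unadjusted p = 0.0294, adjusted p = 0.698). The remaining 8 had edgeR adjusted p-values of 0.862 to 0.986.

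Reads of the demyelination group came almost entirely from library 5, which held 3528970 of the 3772297 gene reads of the group. The reads of nr4a3 were 0, 0, 0, 3 and 209 in demyelination libraries 1 to 5 and 0, 11, 4, 1 and 7 in the controls. Library 5 was thus at 59.2 CPM, above controls 2 to 5 (9.09 to 38.9 CPM), while 3 reads in libraries 1 to 3 would be 37.0 to 78.3 CPM. Library 5 also held 83 of 89 reads of ier2b, 71 of 74 of nr4a1, 37 of 38 of egr2a, all 13 of egr2b and 39 of 43 of egr3 in its group. These counts stand beside its part of all gene reads and are not a result about these genes. Levels pooled over the group are therefore levels of that library.

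The change in 4AP was then set against the change in demyelination in a single model of the 20 libraries. For ier2a the difference between the changes was -1.69 ± 0.52 on the log2 scale (SE, edgeR adjusted p = 0.0825), which did not pass. It passed with DESeq2 (-1.72 ± 0.51, adjusted p = 0.0307), which called 104 of 3981 genes. It also passed without 4AP control 5 (-1.89 ± 0.48, edgeR adjusted p = 0.00652), where 738 of 4018 genes were called. In that fit all 4AP controls had P1 and all 4AP libraries P2. With the prefix as a term the ier2a difference was -0.42 ± 0.62. In the fit of all 20 libraries without added terms the difference was -0.40 ± 0.80 for egr4 and -0.51 ± 0.55 for egr1 (SE, edgeR adjusted p = 0.880 and 0.723). Of 3981 genes tested 1.66% were called (0.352% higher, 1.31% lower), and of the 3 members 0. At an edgeR unadjusted p under 0.05 there was 1 member, ier2a, beside 652 of all 3981 genes.

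Group means ordered differently for each well-read gene. For ier2a and egr1 demyelination and its controls changed places in that order when control 1 was left out. For ier2a the group means were 683 ± 216 CPM in the 4AP controls, 248 ± 57.5 with 4AP, 160 ± 24.9 in demyelination and 154 ± 99.0 in the demyelination controls (SD, n = 5), or 192 ± 56.5 in the last without control 1 (SD, n = 4). The 4AP controls exceeded 4AP as tested above, with a log2 fold change that shrank to -0.54 ± 0.36 (SE) with the prefix as a term. The mean ± SD ranges of 4AP and demyelination did not overlap, while that of demyelination controls 2 to 5 overlapped both. Single libraries did overlap, at 155 to 296 CPM in 4AP and 123 to 183 CPM in demyelination. Demyelination libraries 1 to 4 held only 6 to 15 reads of ier2a each. No test was run between the experiments, and experiment and prefix (P2 and P3) cannot be told apart in these groups. For egr1 the group means were 65.8 ± 34.8 in demyelination, 59.9 ± 35.0 in its controls, 28.1 ± 6.76 in the 4AP controls and 25.4 ± 7.44 in 4AP (SD, n = 5), and 74.9 ± 11.9 in demyelination controls 2 to 5 (SD, n = 4). Every library of the 4AP experiment was at 15.8 to 36.1 CPM for egr1 and those of the demyelination experiment, control 1 aside, were at 36.1 to 104 CPM. Both experiments therefore met at 36.1 CPM, and experiment and prefix P3 cannot be told apart. For egr4 the order was 4AP controls (78.1 ± 39.2), demyelination controls (44.5 ± 34.6), demyelination (32.8 ± 31.3) and 4AP (28.1 ± 11.6; SD, n = 5), with 55.7 ± 27.7 in demyelination controls 2 to 5 (SD, n = 4). Neighbours in that order did not differ beyond their spread.

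Reads of the members fell into introns in very different shares. Intron reads can come from unspliced transcripts or from priming within introns, and the tables do not separate these. The single-exon genes ier2a and ier2b have no intron and could have no such reads, and egr4 and egr1 had 0.283% and 1.61% of their reads in introns. The shares were not scaled by intron length. Exons make up 1954 of the 2130 bases of egr4 and 3158 of the 3864 of egr1. For nr4a1 they make up 5776 of 45129 bases and for nr4a3 3771 of 24400. For nr4a1 the intron share was 58.4% (95% Wilson interval 50.5 to 65.9, 154 reads) and for nr4a3 70.4% (65.02 to 75.2, 307 reads), beside 20.5 to 41.4% of all gene reads in single libraries. Of these reads 71 of nr4a1 and 209 of nr4a3 came from demyelination library 5 alone. By group the nr4a3 share was 60.7% (4AP controls), 70.5% (4AP), 60.9% (demyelination controls) and 72.6% (demyelination, 209 of 212 reads from library 5). The intervals treat reads as independent and leave out the spread between libraries, so the groups were not compared by them. The share was 59.4% for egr2b (42.3 to 74.5, 32 reads), 35.3% for egr3, 26.7% for egr2a and 25% for npas4a, on 20 to 68 reads. On exon reads alone ier2a and egr4 had log2 fold changes of -1.54 ± 0.30 and -1.59 ± 0.41 in 4AP (SE, edgeR adjusted p = 0.0137 and 0.0367). The overlapping antisense gene CR524821.1 had 53 reads in all libraries, beside the 307 of nr4a3.

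**Figure D3:**
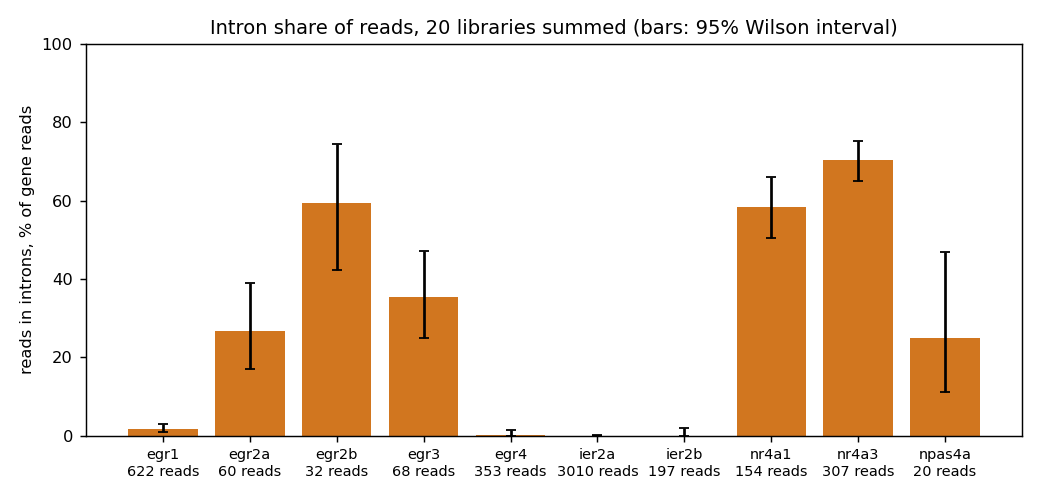
Share of each gene's reads that lie in introns, summed over 20 libraries, with 95% Wilson intervals (counting error only) and the number of reads under each bar. The Ier2 genes have a single exon and are at 0. The genes egr4 and egr1 are at 0.283% and 1.61%, while nr4a3 is at 70.4% and nr4a1 at 58.4%.

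Other genes of the same programme were followed through lists. The members and all lists were chosen with earlier results of these data known. Their counts beside the shares over all genes are therefore descriptions and not tests. Of 30 further immediate early genes 21 were tested for 4AP, and 6 fell, 0 rose and 15 did not pass. In that fit 10.1% of all genes tested were called lower and 2.98% higher. The list had a median log2 fold change of -0.69 beside 0.19 over all genes. The 6 were dusp5 (a phosphatase that inactivates ERK; -3.0 ± 0.50), klf2a (-1.50 ± 0.42), mcl1a (a survival protein of the Bcl2 family; -1.37 ± 0.28), junba (-1.25 ± 0.31) and fosab (-1.22 ± 0.24), both AP-1 subunits, and btg2 (an antiproliferative gene; -1.15 ± 0.33), with edgeR adjusted p-values of 0.00316 to 0.0291. For fosab the P1 controls were at 501 to 690 CPM, control 5 at 589 and 4AP at 227 to 415, so control 5 stood with the other controls. For junba the P1 controls were at 110 to 179 CPM, with control 5 (111) inside their range and 4AP at 42.1 to 100. For dusp5, klf2a, mcl1a and btg2 control 5 (21.2, 23.4, 105 and 86.9 CPM) lay below the P1 controls (at least 55.2, 61.3, 132 and 165). Without 4AP control 5 the same list had 12 calls, 8 lower and 4 higher, where 2140 of all 4373 genes tested were called (985 lower, 1155 higher), and with the prefix as a term 0, with 5 at an unadjusted p under 0.05. The list had 3 calls with library totals in place of TMM, without 4AP control 2 or 4AP library 2, and without a filter (of 30 genes). It had 2 on exon reads, and 4 to 6 in the other fits without 1 library. With the library total as a term it had 0 calls, with 5 at an edgeR unadjusted p under 0.05. That fit called 0 of all 5161 genes.

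Genes that act upstream of the members rose or did not pass. The list held 20 genes of SRF, Elk, ERK, CREB, calmodulin kinase and Mef2, which carry signals to immediate early promoters. Of these 9 were tested, 2 rose and 0 fell, where 2.98% of all genes tested were called higher and 10.1% lower. The list median of the log2 fold change was 1.16, beside 0.19 over all genes. The genes that rose were crebbpb (a CREB-binding coactivator; 1.18 ± 0.36, edgeR adjusted p = 0.0378) and mef2aa (a Mef2 transcription factor; 1.33 ± 0.42, edgeR adjusted p = 0.0440). Their reads were 75.4% and 82.3% intronic, and on exon reads 4 genes of the list were tested and 0 called, with 0 at an unadjusted p under 0.05. For crebbpb the P1 controls were at 10.1 to 28.3 CPM, control 5 at 32.3 and 4AP at 50.5 to 80.6. For mef2aa the P1 controls were at 6.77 to 24.5 CPM, control 5 at 41.2 and 4AP at 55.6 to 94.4. Without 4AP control 5 there were 6 calls of 7 genes tested, all higher, in the fit that called 1155 of 4373 genes higher. Leaving out any other single library gave 0 calls of 7 to 9 genes tested, or 1 without 4AP library 5. In those fits 3 to 6 genes of the list had an edgeR unadjusted p under 0.05. Over all 4218 to 6891 genes tested there, 1290 to 1955 were under it. With the prefix as a term, where the comparison rests on control 5, the list median was 0.45 in place of 1.16. With the library total as a term edgeR called 0 of the 9 genes, with 2 at an unadjusted p under 0.05 and a list median of 0.84. That fit called 0 of all 5161 genes, with 496 at an edgeR unadjusted p under 0.05. Of 13 partners and corepressors (Nab, Arnt and Rxr genes) arnt2 and rxraa were tested and edgeR and DESeq2 called 0 of them, with 0 at an unadjusted p under 0.05 and log2 fold changes of 0.86 ± 0.57 and 0.75 ± 0.39.

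Later targets of activity were mostly too low to test. Of 14 genes 13 were in the tables and 4 were tested. Where 10.1% of all genes tested were called lower, 3 of these 4 fell. They were gadd45bb (-2.06 ± 0.61), cebpb (-1.68 ± 0.30) and cebpd (-1.30 ± 0.30), a growth-arrest gene and a pair of C/EBP transcription factors, with edgeR adjusted p-values of 0.00381 to 0.0355. For cebpb the P1 controls were at 231 to 276 CPM, control 5 at 123 and 4AP at 73.4 to 109. For cebpd they were at 705 to 805 CPM, with control 5 (340) inside the 4AP range of 247 to 465.6. For gadd45bb they were at 33.8 to 116 CPM, with control 5 (5.57) below every 4AP library (6.32 to 24.2). With the prefix as a term edgeR called 0 of the 4 genes, with 0 at an unadjusted p under 0.05, and the list median was -0.24 in place of -1.49. With the library total as a term edgeR called 0 of the 4 genes, with 1 at an unadjusted p under 0.05 and a list median of -0.71. The neuronal genes of that list, bdnf and homer1b among them, did not pass the filter. In demyelination, where edgeR called 0 genes in all, the median log2 fold change was -0.20 over 7 immediate early genes and -0.03 over 2 later genes, beside 0.21 over all genes.

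**Figure D4:**
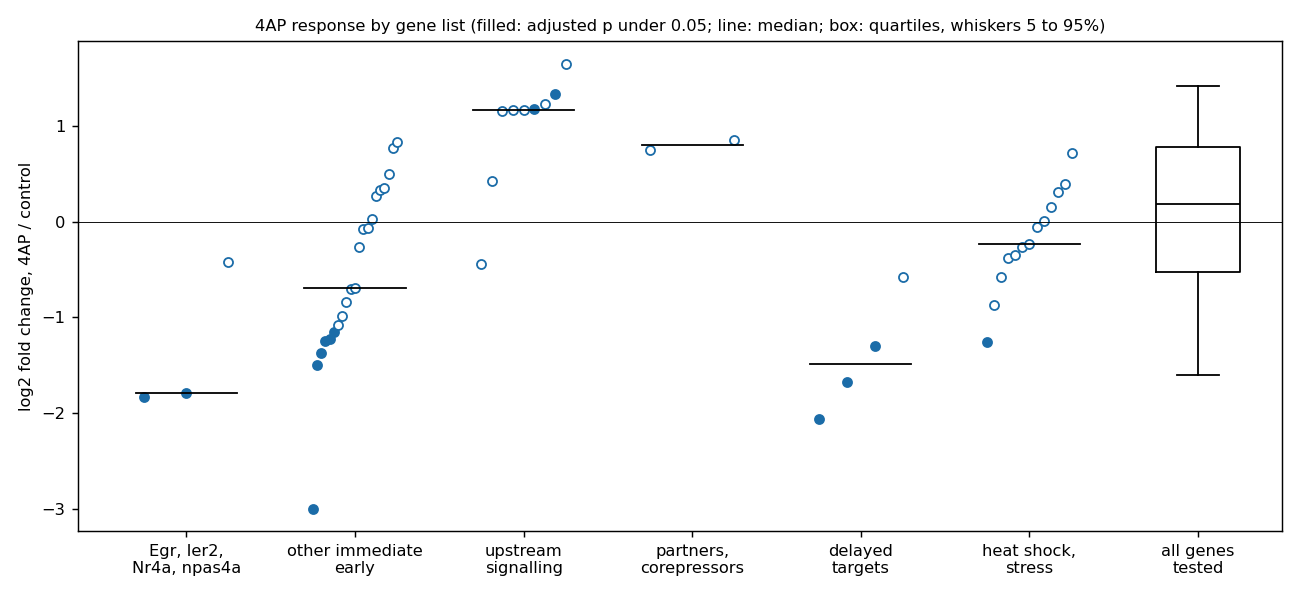
Log2 fold change (4AP over control) of each tested gene by list, filled where the edgeR adjusted p was under 0.05, with list medians as lines and all 5161 genes as a box. The other immediate early genes have a median of -0.69, upstream genes 1.16 and all genes 0.19.

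Markers of other cells and of stress were followed in the same 4AP fit. Of all 5161 genes tested there, 520 were called lower and 154 higher, and 1716 had an edgeR unadjusted p under 0.05. Of the 9 microglia and macrophage markers 2 were tested and both fell, apoeb (-1.31 ± 0.29) and lcp1 (-1.70 ± 0.39; edgeR adjusted p = 0.0110 and 0.0116). Their summed level was 912 to 1451 CPM in the P1 controls, 525.8 in control 5 and 460 to 609 in 4AP, and ptprc, spi1b, cd74b and csf1rb were at 0 reads in the P1 controls. Of 16 heat shock and stress genes 13 were tested and 1 fell (hspb1). They summed to 19820 to 23192 CPM in the P1 controls, 64308 in control 5 and 26304 to 39955 in 4AP. The 11 neuron markers summed to 105 to 184 CPM in the P1 controls, 587 in control 5 and 407 to 650 in 4AP, with 5 tested and 0 called by edgeR (at an unadjusted p under 0.05 there were 2, elavl3 and elavl4). The 7 endothelial markers summed to 10.1 to 42.3 CPM in the controls and 30.9 to 63.2 in 4AP, and 0 passed the filter. The 5 epidermal markers summed to 6632 to 9540 CPM in the P1 controls, 3850 in control 5 and 4267 to 8688 in 4AP. All 5 were tested and edgeR called 0. Of them krt5 (-1.01 ± 0.35) and epcam (-0.86 ± 0.34) had an edgeR unadjusted p under 0.05. For the 5 muscle markers the sums were 1480 to 2568 CPM, 1684 and 685 to 2755, with 4 tested and 0 called by edgeR. At an edgeR unadjusted p under 0.05 were mylpfa (-0.90 ± 0.32) and ckma (-0.68 ± 0.30). Of 7 radial glia markers 4 were tested and 1 fell, the glutamate transporter slc1a3a (-1.89 ± 0.42, edgeR adjusted p = 0.0100), at 49.0 to 89.6 CPM in the P1 controls, 27.9 in control 5 and 14.0 to 26.7 in 4AP. The 4 mural markers summed to 57.5 to 73.5 CPM in the P1 controls, 149 in control 5 and 139 to 221 in 4AP, with 3 tested and 0 called by edgeR (pdgfrb alone had an unadjusted p under 0.05). The 7 myelinating oligodendrocyte markers summed to 423 to 1115 CPM in the P1 controls, 917 in control 5 and 773 to 1706 in 4AP. All 7 were tested and edgeR called 0, with 2 (mbpa and mbpb) at an unadjusted p under 0.05 and a median log2 fold change of 0.69. All 6 OPC markers were tested and 1 rose, cspg4 (1.42 ± 0.41, edgeR adjusted p = 0.0323), and 94.4% of the cspg4 reads were intronic. Of the others pdgfra alone (0.81 ± 0.32) had an edgeR unadjusted p under 0.05. The part of these cells, or of heat shock, in the levels of ier2a and egr4 was not tested.

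The genes whose profile over the 10 libraries of the 4AP experiment lay nearest to that of ier2a were aifm2, cebpb, npc2, ela2 and si:ch73-335l21.4. Nearness was the root mean square difference between log2 normalised CPM profiles, each centred on its mean, among 3783 other genes that averaged 20 reads or more. It was 0.22 to 0.29 for these 5 genes and 1.27 for the median gene. These 5 genes were picked for likeness to ier2a, so the step they shared between the P1 controls and the rest followed from that choice. For aifm2 the P1 controls were at 73.5 to 108 CPM, control 5 at 26.7 and 4AP at 14.3 to 30.5. By this measure egr4 ranked at 272 (0.55) and egr1 at 1009 (0.90).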

How the data were processed

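Per the labels' protocols, libraries were made from 1 ng or 4 ng of RNA with a kit for 3' transcript ends, with no record of which amount a library received. The authors deposited 1 table per library with whole-number counts per gene of exon, intron, unique and summed reads, per the file headers. The submitters' processing notes name the build GRCz11. Aligner, annotation, strand and collapsing of molecular identifiers are not given in the sources used here, so copies of 1 molecule may be counted more than once. The members and lists were chosen with earlier results of these data known.

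Total gene reads were filtered with filterByExpr (minimum count 10, minimum total 15), normalised with TMM and tested with edgeR 4.0.16 (robust quasi-likelihood, R 4.3.3, limma 3.58.1) over all genes, with Benjamini-Hochberg adjustment and a threshold of 0.05. The standard error is the log2 fold change divided by the square root of F. Levels are CPM of all gene reads, and 3 reads set the detection limit. Intervals are at 95%. The tests were tried on simulated counts that held no difference between prefixes, so that trial does not bear on the prefix.

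The named genes were the 10 members, up to 6 called genes of each list with fosab, and the 5 genes nearest to the member with the most reads, by the measure given in the text. Alternatives were library totals, DESeq2 1.42.0, no filter, exon reads, unique gene reads, a replicate block, the prefix or the library total as a term, and leaving out each library. Applying them to the lists was added after seeing the data.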

Additional observations from a re-analysis of the deposited data

Results flagged for a closer look

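Within groups of 5 libraries, 8 of 40 sets of levels had a library standing apart from the other 4. For continuous values chance gives about 1 in 20, but in 5 of the 8 the other libraries were all at 0, so that any read set a library apart, and 7 of the 8 rest on 1 to 13 reads. That rate does not apply to such sparse counts. In 4AP control 5 the level of ier2a was 315 CPM beside 711 to 858 in the other 4 controls. The same library was the only control with reads of egr2a (3.34 CPM), egr2b (6.68 CPM) and egr3 (1.11 CPM), from 3, 6 and 1 reads, and it is the deepest control and the only one with prefix P2. In demyelination control 5, egr3 was at 13.2 CPM beside 0 to 3.53 and npas4a at 13.2 CPM beside 0, each from 3 reads. In demyelination library 4, npas4a was at 12.03 CPM from 1 read, beside 0 to 0.283. In demyelination library 5, the deepest library, egr2b was at 3.68 CPM from 13 reads beside 0 in the other 4.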

How the results depend on the processing

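The calls of ier2a and egr4 in 4AP kept their direction in all 18 alternatives and were lost in 2, the prefix and the library total as terms. Over all genes, 4AP gave 674 calls (154 higher, 520 lower). It gave 194 on exon reads, 448 with the replicate block, 0 with the library total as a term (496 at an unadjusted p under 0.05) and 0 with the prefix. Library totals turned the split to 411 higher and 207 lower. Leaving out 1 library gave 271 to 2140 calls. The extremes came without control 2 and control 5, and without controls 1 and 3 and 4AP libraries 2, 4 and 5 the counts were 373, 379, 364, 414 and 389. Demyelination gave 0 calls, 5 with DESeq2, 7 without a filter and 0 to 1 when leaving out 1 library (1 without demyelination library 2 or 3). There ier2a turned negative with library totals (-0.24), without a filter (-0.43) and without control 4 or demyelination library 4, with a range of -0.12 to 0.25 over the libraries left out. The difference between the responses gave 66 calls, 104 with DESeq2, 114 without a filter, 39 on exon reads, 8 with the replicate block, 0 with the prefix, and 3 to 738 when leaving out 1 library (without demyelination control 2 and 4AP control 5). There the log2 difference of egr4 was 0.080 with library totals and 0.15 with the prefix, and ranged from -1.13 to 0.046 when leaving out 1 library. The causes were not tested. The labels do not say that replicate numbers pair libraries. Deviations of same-numbered libraries correlated above 0.1 in 1 of 5 pairs for 4AP and 0 of 5 for demyelination, and 2 and 1 of 5 correlated best with their own number. With the replicate block ier2a and egr4 were at -1.75 and -1.75 in 4AP (edgeR adjusted p = 0.0130 and 0.0326). Low counts limited 7 of the 10 members in 4AP and in the difference, and 9 in demyelination, to the fit without a filter.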
